A study of Homo sapiens with 4 samples.

Results

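The genes described here are 51 members of the chromosome segregation machinery: mitotic kinesins, centromere and kinetochore proteins, the spindle checkpoint, the chromosomal passenger complex and the proteins of the spindle midzone and of cytokinesis. They were chosen by name, from what their proteins do, but with earlier results of these data known. Each was read through the probe set that names it alone and has the highest mean over the arrays. All 51 were measured, among 19775 genes with such a probe set. RNA came from KGN cells, a human line from an ovarian granulosa cell tumour, and was hybridised to 4 Affymetrix HG-U133 Plus 2.0 arrays, which carry short probes mostly near the 3' end of transcripts. On the array siNC the cells had received a control siRNA at 10 nM. On siYT they had received siRNAs to YAP and to TAZ at 5 nM each, the transcriptional co-activators that the Hippo pathway holds back. All cells were transfected and had their medium changed after 48 h. On siNC+8Br-cAMP and siYT+8Br-cAMP the new medium held 0.5 mM 8Br-cAMP, a cell-permeable analogue of cyclic AMP, for 24 h. Each combination was read on 1 array, so no difference has a replicate check. A single line, transiently transfected, stands for the cell type.

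In mitosis, kinetochores assemble on centromeric chromatin and bind the spindle's microtubules, kinesin motors move chromosomes and build the spindle, and the checkpoint delays anaphase until every kinetochore is attached. The chromosomal passenger complex corrects faulty attachments and then moves to the midzone, where the cleavage furrow and abscission follow. Many of these genes are transcribed mainly in G2 and M phase, through promoters with a cell cycle homology region (CHR) and NF-Y boxes that the MuvB complexes and FOXM1 regulate, so their mRNA is a common measure of how many cells of a culture are dividing. YAP and TAZ act on DNA through TEAD factors, and cyclic AMP drives differentiation of granulosa cells.

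Values are linear probe set intensities, set to a floor of 62.6 (the median of all values) where they were lower, and differences are between log2 values. Of 51 members, 41 lay above the floor on every array and all 51 on at least 1, with 50 above it on siNC and on siNC+8Br-cAMP, 48 on siYT and 43 on siYT+8Br-cAMP. The siRNA targets read lower after knockdown, YAP1 by 3.80-fold and 3.38-fold and WWTR1, the gene for TAZ, by 5.22-fold and 6.11-fold, without and with 8Br-cAMP. Of 10 granulosa markers, 7 lay above the floor on all arrays, including FOXL2, GATA4 and WT1, while NR5A1, FSHR and AMHR2 were below it on all 4. Of 11 epithelial, immune and endothelial markers, 5 lay below the floor on all arrays, PECAM1 (144 to 233) above it on all 4 and CD14 on both control arrays. TEK passed it on siNC, and KRT5, PTPRC and CD3D (66.9 to 87.0) on siYT+8Br-cAMP. The siYT+8Br-cAMP array had a ratio of 3' to 5' signal of 1.35 for ACTB and 1.13 for GAPDH, against at most 1.14 and 0.96 on the others. Its part in the results was not tested. As a yardstick of measurement error, probe sets of the same gene differed from each other with an SD (log2) of 0.39 for knockdown without 8Br-cAMP and 0.54 with it, and of 0.37 and 0.53 for 8Br-cAMP with control siRNA and after knockdown. This leaves out variation between cultures.

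The comparison of siYT with siNC asked what depends on YAP and TAZ, and the 51 members read lower nearly throughout. Without 8Br-cAMP, 46 of 51 members were at least 2-fold lower, where 6.05% of the 14427 genes compared were. With 8Br-cAMP, 44 were, against 9.48% of all genes. In both comparisons, which share no array, 41 were at least 2-fold lower, against 2.81%, and 0 members were 2-fold higher in either. The median member differed by -2.29 without and -1.87 with 8Br-cAMP, or 4.89-fold and 3.66-fold lower, where the median of all genes was 0 in each. Values at least 4-fold lower were read for 33 members without and 22 with 8Br-cAMP, against 1.10% and 1.46% of all genes. With the floor raised to the 75th percentile of all values (389), 16 of 51 members were at least 2-fold lower in both. Of the 51, 44 were among the 8896 genes that passed that floor on an array. The share of all genes lower in both was not computed at that floor. These are bulk cells, so fewer cells in mitosis and less of each mRNA per cell cannot be told apart.

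Both control arrays read above both YAP/TAZ siRNA arrays for 49 members, against 19.3% of all genes, with SGO1 and CENPL as the exceptions. The full order siNC, siNC+8Br-cAMP, siYT, siYT+8Br-cAMP from high to low held for 39, against 7.56%. An additive limma fit of siRNA and 8Br-cAMP, with 1 residual degree of freedom, called 31 of 51 members lower for the knockdown at a Benjamini-Hochberg level of 0.05 over 14427 genes, against 1.12% of all genes. Their fitted log2 changes ran from -3.13 to -1.82, with SE from 0.264 to 0.356 and limma adjusted p from 0.0363 to 0.0467, and 48 members were lower at an unadjusted p of 0.05, as were 9.99% of all genes. These adjusted p-values lie close under the threshold. The fit takes as error how far a gene's knockdown difference with 8Br-cAMP departs from that without it. No culture replicate enters it. With the mean over a gene's probe sets, with no floor, or without probe sets marked as shared between transcripts, limma called 0 members. Under each of these settings it called 0 of all genes for the knockdown. At unadjusted p, 47 of 51, 39 of 51 and 36 of 38 members were lower. Of all genes, 1436 of 14427, 789 of 19775 and 1000 of 11551 were. The sizes thus carry the comparison more than this test does.

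**Figure D1:**
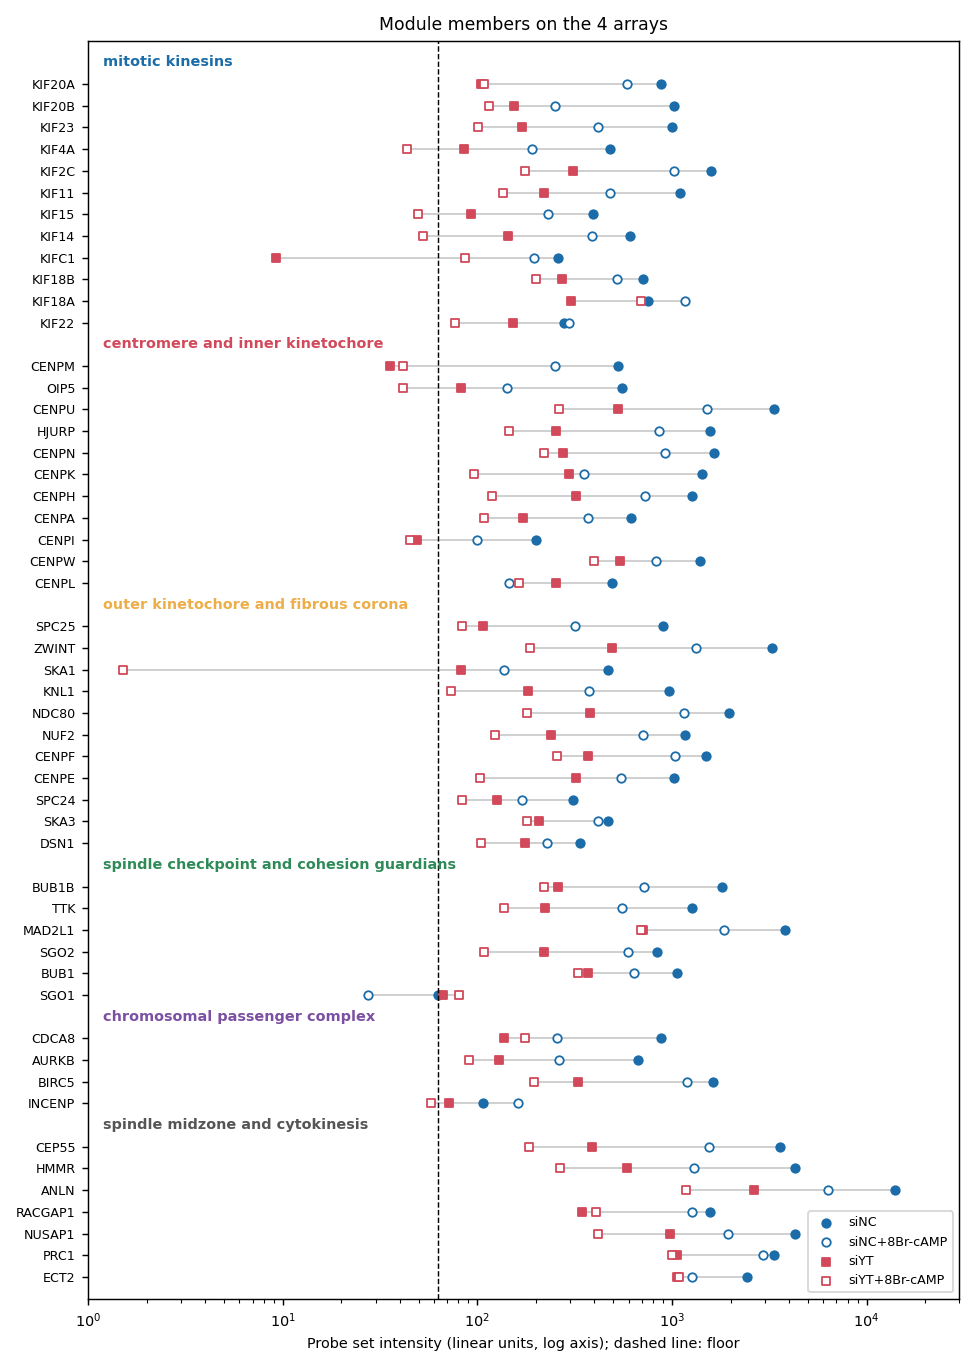
Intensity of each member's probe set on the 4 arrays (log axis, linear units), 1 row a gene, ordered within each role by the difference between siYT and siNC; the dashed line is the floor of 62.6. Control siRNA arrays (circles) lie to the right of YAP/TAZ siRNA arrays (squares) for 49 of 51 members, and open symbols (8Br-cAMP) mostly lie to the left of filled ones.

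Members above the floor on all arrays were ranked by whichever of their 2 knockdown differences was closer to 0, and CEP55, ZWINT and HJURP came lowest. CEP55, which recruits the abscission machinery to the midbody, read 3585 on siNC, 1558 on siNC+8Br-cAMP, 391 on siYT and 185 on siYT+8Br-cAMP. Its knockdown differences were 9.17-fold without and 8.40-fold with 8Br-cAMP. Since the ranking used these differences, they describe CEP55 and are no separate support. ZWINT, which links the RZZ complex of the checkpoint to the kinetochore, read 3286, 1337, 493 and 187 in the same order, 6.66-fold and 7.17-fold lower. HJURP, the chaperone that loads CENP-A, read 1575, 860, 254 and 146, 6.19-fold and 5.91-fold lower. At the other end, the mean of both knockdown differences was nearest 0 for CENPL, of the inner kinetochore, and then ECT2, the exchange factor that activates RhoA at the division plane. ECT2 read 2419, 1273, 1067 and 1084, which gave 2.27-fold without 8Br-cAMP and 1.17-fold with it.

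Because the members read lower together, their promoters were searched for the motifs named above. RefSeq promoter windows (GRCh38.p14, 250 bases before to 50 after a transcript start) were matched for 44 of 51 members. The lines that follow give the 250 bases before the start, 5' to 3' on the gene's strand, for the 3 members that came lowest in that ranking and for ECT2, shown so that members with large and small knockdown differences can be read side by side. For CENPL no window is printed. Where a gene had several RefSeq starts, the most upstream one was taken, and distances are counted from it. Capitals mark TTTGAA (CHR) and CCAAT (NF-Y) on either strand, so TTCAAA and ATTGG are capitals too. The windows are chr10:93496362-93496611 on the plus strand for CEP55, chr10:56361274-56361523 on the minus strand for ZWINT, chr2:233854536-233854785 on the minus strand for HJURP and chr3:172750476-172750725 on the plus strand for ECT2.
CEP55: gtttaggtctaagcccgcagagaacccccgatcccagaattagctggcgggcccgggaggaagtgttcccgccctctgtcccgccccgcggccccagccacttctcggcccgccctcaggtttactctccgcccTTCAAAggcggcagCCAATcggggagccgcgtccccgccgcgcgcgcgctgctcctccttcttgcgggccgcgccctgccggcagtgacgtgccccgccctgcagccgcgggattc
ZWINT: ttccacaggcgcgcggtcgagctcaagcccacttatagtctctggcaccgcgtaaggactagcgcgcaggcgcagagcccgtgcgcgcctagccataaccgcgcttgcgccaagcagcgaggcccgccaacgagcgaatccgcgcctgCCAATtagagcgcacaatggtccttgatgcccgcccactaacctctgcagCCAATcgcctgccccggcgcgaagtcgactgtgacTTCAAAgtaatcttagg
HJURP: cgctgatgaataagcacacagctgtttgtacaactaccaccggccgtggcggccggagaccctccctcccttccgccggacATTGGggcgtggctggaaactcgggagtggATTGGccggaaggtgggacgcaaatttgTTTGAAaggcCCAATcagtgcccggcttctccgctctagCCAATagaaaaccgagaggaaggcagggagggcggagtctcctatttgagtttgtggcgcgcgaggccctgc
ECT2: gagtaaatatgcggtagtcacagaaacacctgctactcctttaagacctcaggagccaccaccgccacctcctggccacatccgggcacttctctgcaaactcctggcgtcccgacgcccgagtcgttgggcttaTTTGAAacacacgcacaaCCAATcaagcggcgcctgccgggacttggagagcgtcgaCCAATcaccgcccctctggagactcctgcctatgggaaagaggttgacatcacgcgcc

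Each of these 4 promoters holds both motifs. The TTTGAA match begins 116 bases before the start in CEP55, 111 in HJURP and 115 in ECT2. Each has a CCAAT shortly downstream, at 102, 101 and 97. In ZWINT TTTGAA begins 17 bases before the start, with CCAAT at 102 and 52. Among all members, TTTGAA was found in the windows of 29 of 44, and in 63.3% of their 49 windows against 12.4% of 22199 windows of coding genes. CCAAT was found for 33 of 44 members (73.5% of windows against 34.7%), and both together for 22 of 44 (46.9% against 4.97%). GGAATG, the TEAD motif, was found for 8 of 44 (18.4% against 12.2%), and TGACGTCA, the full cyclic AMP response element, for 5 of 44 (10.2% against 2.26%). The shares of windows count both strands, and a match describes letters, not binding.

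The 29 members with TTTGAA had median knockdown differences of -2.36 and -1.81, without and with 8Br-cAMP. The 15 with a window but no TTTGAA had -1.68 and -1.55. With and without CCAAT the medians were -2.27 (33 members) and -2.29 (11 members) without 8Br-cAMP, and -1.78 and -1.89 with it. The 8 members with GGAATG were CENPE, CENPF, CENPK, ECT2, HMMR, KIF22, KIF2C and NUF2. Of these, ECT2 and KIF22 had a knockdown difference below 2-fold in 1 comparison. CENPE, CENPF, CENPK, HMMR, KIF2C and NUF2 were at least 2-fold lower in both, as were 41 of all 51 members. Medians of members with and without GGAATG were not computed, so nothing particular to this motif can be read here.

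Of the 12 mitotic kinesins, 11 were at least 2-fold lower without 8Br-cAMP, 11 with it and 10 in both (medians -2.21 and -1.85), and limma called 7. KIF20A, which carries the passenger complex to the midzone, read 874 on siNC, 589 on siNC+8Br-cAMP, 104 on siYT and 109 on siYT+8Br-cAMP. It was 8.39-fold and 5.43-fold lower, with siYT readings alike whether or not 8Br-cAMP was given. KIF11, the motor that pushes spindle poles apart, read 1097, 479, 220 and 136, 4.99-fold and 3.51-fold lower. KIF2C, which depolymerises microtubules at the centromere, read 1591, 1022, 312 and 175, 5.11-fold and 5.83-fold lower. KIF23, the motor of the centralspindlin complex, read 1006, 417, 170 and 101, 5.93-fold and 4.14-fold lower. All 12 mitotic kinesins, these 4 among them, read lower on both siYT arrays than on both control arrays. KIF4A, KIF14 and KIF15 passed the floor on all but the siYT+8Br-cAMP array, which makes their knockdown differences with 8Br-cAMP at least 3.06-fold, at least 6.21-fold and at least 3.71-fold. KIFC1, a minus-end motor that focuses spindle poles, read 260, 195, 9.23 and 86.8, so it was at least 4.15-fold lower without 8Br-cAMP and 2.25-fold lower with it.

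KIF18A and KIF22 were each below 2-fold in 1 knockdown comparison. KIF18A, which limits chromosome oscillation at plus ends, read 752, 1166, 302 and 691, so siYT+8Br-cAMP nearly reached siNC. Its knockdown difference was 2.49-fold without and 1.69-fold with 8Br-cAMP. KIF22, a chromosome-arm motor, read 278, 297, 152 and 76.9, which is 1.83-fold and 3.87-fold lower. KIF18B, a depolymerase of astral microtubules, read 714, 520, 272 and 200.2, and its 2.62-fold and 2.60-fold lower values were alike in both conditions.

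Of the 11 centromere and inner kinetochore members, 10 were at least 2-fold lower without and 9 with 8Br-cAMP, 9 in both (medians -2.27 and -1.87), and limma called 7. CENPA, the histone H3 variant that marks the centromere, read 618, 370.1, 171 and 108, and was 3.61-fold and 3.43-fold lower. HJURP, which deposits it, is given above. OIP5, a subunit of the Mis18 complex that prepares the centromere for that deposit, read 555, 142, 82.0 and 41.7. That was 6.77-fold lower without 8Br-cAMP and, since the last array was below the floor, at least 2.27-fold lower with it. CENPU, of the constitutive network on CENP-A, read 3340, 1520, 528 and 264 (6.33-fold and 5.76-fold lower), CENPN, which reads the CENP-A nucleosome, 1648, 923, 275 and 219 (5.996-fold and 4.21-fold), and CENPH 1262, 731, 323 and 119 (3.91-fold and 6.16-fold). Dimmer CENPU probe sets (246 and 230 on siNC) gave 2.24-fold and 1.17-fold, and 2.68-fold and at least 1.78-fold. CENPM, at the floor on both siYT arrays, was at least 8.41-fold and at least 4.02-fold lower. CENPK read 1424, 352, 296 and 96.4, where 8Br-cAMP with control siRNA came close to the level of knockdown alone. CENPW, of the histone-fold complex, was lower by less (2.57-fold and 2.07-fold). CENPI, above the floor on the control arrays alone, was at least 3.21-fold lower in the absence of 8Br-cAMP and at least 1.60-fold with it. CENPL read 494, 146, 254 and 163 on its representative probe set, with siNC+8Br-cAMP lowest, so its knockdown differences were -0.96 and 0.16. Its other probe set read 544, 258, 155 and 127, which gave -1.81 and -1.03.

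Of the 11 members of the outer kinetochore and its fibrous corona, 10 were at least 2-fold lower without 8Br-cAMP, 11 with it and 10 in both (medians -2.29 and -2.01), and limma called 7. All 11 had the order siNC, siNC+8Br-cAMP, siYT, siYT+8Br-cAMP from high to low. The 4 subunits of the NDC80 complex, the main microtubule attachment of the kinetochore, were lower to unequal degrees. NDC80 read 1958, 1155, 380.2 and 179, and was 5.15-fold and 6.45-fold lower. NUF2, its partner in the rod, read 1166, 712, 238 and 123, and was 4.89-fold and 5.77-fold lower. SPC25 read 896, 316, 106 and 83.9, and was 8.41-fold and 3.77-fold lower. SPC24, paired with SPC25 at the base of the rod, read 309, 170.4, 127 and 83.0, and was 2.43-fold and 2.05-fold lower. The siYT+8Br-cAMP readings of SPC24 and SPC25 lay near the floor, which limits how low these can read.

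KNL1, the scaffold that recruits BUB1, read 961, 373, 183 and 73.0 and was 5.26-fold and 5.11-fold lower. DSN1, of the Mis12 complex beneath it, read 339, 227, 175 and 105, and was 1.93-fold and 2.17-fold lower. CENPE, the corona kinesin that carries chromosomes to the equator, read 1020, 546, 322 and 103 (3.16-fold and 5.31-fold lower), and CENPF, another corona protein, 1491, 1033, 370 and 256 (4.03-fold and 4.04-fold lower). Of the Ska complex, which holds on to depolymerising microtubules, SKA3 was 2.26-fold and 2.33-fold lower. SKA1 was 5.71-fold lower without 8Br-cAMP and, with the last array below the floor, at least 2.19-fold lower with it.

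Of the 6 spindle checkpoint and cohesion genes, 5 were at least 2-fold lower without and 4 with 8Br-cAMP, 4 in both (medians -2.18 and -1.56), and limma called 3. BUB1B, the BubR1 subunit of the mitotic checkpoint complex, read 1811, 719, 261 and 219 (6.93-fold and 3.28-fold lower). TTK, the Mps1 kinase that starts the signal, read 1268, 553, 224 and 137 (5.67-fold and 4.04-fold lower). BUB1, the kinase that marks the inner centromere, read 1061, 642, 371 and 331, which gave 2.86-fold and 1.94-fold. MAD2L1, which encodes MAD2, read 3823, 1846, 707 and 697, and was 5.41-fold and 2.65-fold lower. A second MAD2L1 probe set read 3356, 1776, 668 and 228, so the pair agreed on 3 arrays and differed on siYT+8Br-cAMP, where it gave 7.79-fold. Its dimmest probe set read 180, 158, 76.7 and 110, and gave 2.35-fold and 1.44-fold. SGO2, a shugoshin of the inner centromere, read 835, 593, 219 and 109 (3.81-fold and 5.44-fold lower). SGO1, the shugoshin that protects centromeric cohesin in mitosis, read 62.5, 27.5, 66.6 and 80.2, at or just above the floor, so no direction can be read for it.

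The 4 chromosomal passenger genes had medians of -2.34 and -1.47. At least 2-fold lower values were read for 3 without and 3 with 8Br-cAMP, 2 of them in both, and limma called 2. AURKB, the complex's kinase, read 670.1, 264, 129 and 90.1 (5.18-fold and 2.93-fold lower). BIRC5, which encodes survivin, read 1626, 1189, 331 and 196 (4.92-fold and 6.07-fold lower). CDCA8, which encodes borealin, read 875, 257, 138 and 175, so its difference of 6.35-fold without 8Br-cAMP stood at 1.47-fold with it. INCENP, the scaffold, read 107, 163, 71.9 and 58.0, close to the floor, with 1.49-fold and at least 2.60-fold lower values.

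All 7 midzone and cytokinesis members were at least 2-fold lower without 8Br-cAMP and 6 with it, the exception being ECT2 (medians -2.19 and -2.22), and limma called 5. ANLN, which encodes the anillin scaffold of the contractile ring, read 13962, 6305, 2637 and 1186, and was 5.29-fold and 5.32-fold lower. HMMR, a spindle assembly factor and hyaluronan receptor, read 4294, 1300.4, 590 and 267 (7.28-fold and 4.86-fold lower). Its other probe set read 2078, 720, 343 and 331, and gave 6.06-fold and 2.18-fold. NUSAP1, which stabilises spindle microtubules around chromosomes, read 4289, 1935, 973 and 415 (4.41-fold and 4.66-fold lower). PRC1, which bundles antiparallel microtubules at the midzone, read 3332, 2954, 1061 and 1003, and was 3.14-fold and 2.94-fold lower. RACGAP1, the partner of KIF23 in centralspindlin, read 1568, 1264, 344 and 407 (4.57-fold and 3.11-fold lower). For PRC1, RACGAP1 and ECT2, siYT readings with and without 8Br-cAMP were alike, while those of the other 4 were lower with it on the representative probe sets.

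**Figure D2:**
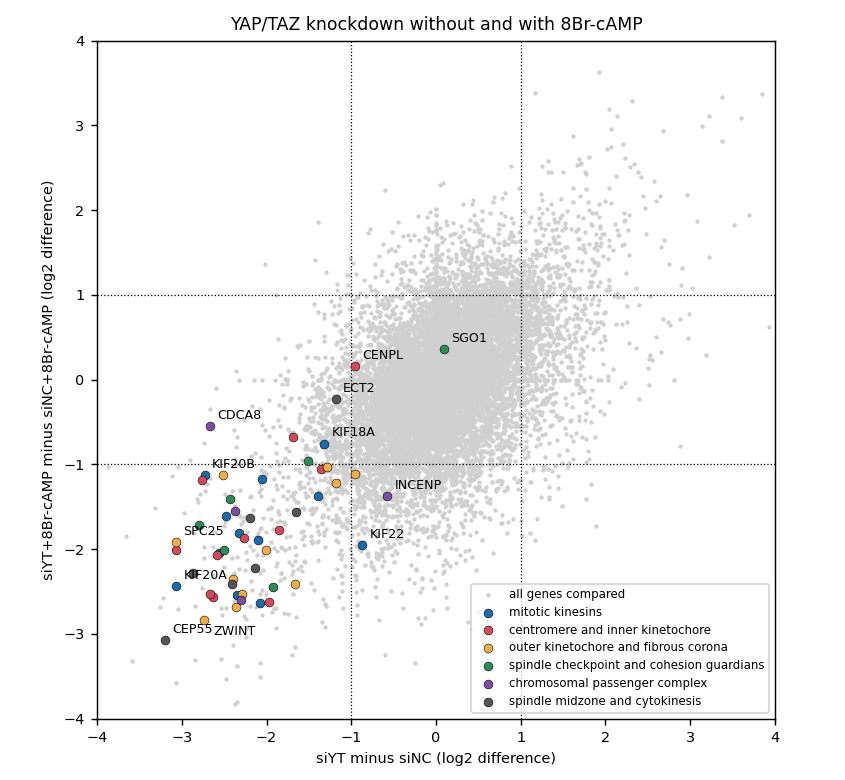
Knockdown difference without 8Br-cAMP (x axis) against that with it (y axis), both log2; grey points are the 14427 genes compared, coloured points the 51 members by role, dotted lines the 2-fold limits. Of the members, 41 lie in the lower left corner beyond both limits, and 5 grey points fall outside the axes.

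The knockdown difference with 8Br-cAMP minus that without it was above 0 for 35 members, against 48.0% of all genes, and below 0 for 16, against 52.0%. This difference of differences was at least 2-fold higher for 10 members (5.39% of all genes), whose knockdown differences between floored values were smaller with 8Br-cAMP. It was at least 2-fold lower for 1, KIF22 (9.56% of all genes), whose knockdown difference was larger with it. Of the 10, CDCA8 (2.12 on the log2 scale), KIF20B (1.60), SPC25 (1.16), CENPL (1.12), BUB1B (1.08) and MAD2L1 (1.03) were above the floor on all arrays. OIP5 and SKA1 were below it on siYT+8Br-cAMP, where the floor shortens the difference with 8Br-cAMP. CENPM and CENPI were below it on both siYT arrays, so both their knockdown differences are bounds. For OIP5, SKA1, CENPM and CENPI the direction of the difference of differences is therefore not settled. The other MAD2L1 probe sets gave -0.63 and 0.71. The SD of this quantity between probe sets of the same gene was 0.60, and no test of it can be made with 1 array a group. KIF20B, a kinesin of late cytokinesis, read 1030.2 on siNC, 251 on siNC+8Br-cAMP, 155 on siYT and 115 on siYT+8Br-cAMP, so the smaller difference came with a low siNC+8Br-cAMP reading.

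The arrays with 8Br-cAMP were set against those without it to learn what cyclic AMP does in these cells, and most members read lower with it. With control siRNA, 23 of 51 members were at least 2-fold lower, against 5.22% of all genes, and the median was -0.87. After knockdown 12 were, against 9.88%, and the median was -0.56. In both, which share no array, 7 members were at least 2-fold lower (2.08% of all genes), and 40 had lower values of any size (28.8% of all genes). Of the 7, CEP55, ANLN, HMMR and NUSAP1 belong to the midzone and cytokinesis, ZWINT and KNL1 to the outer kinetochore and CENPK to the inner kinetochore. ANLN was 2.21-fold lower with control siRNA and 2.22-fold lower after knockdown, and CENPK 4.04-fold and 3.07-fold. For HMMR the other probe set gave 2.89-fold and 1.04-fold, and for NUSAP1 1.79-fold and 3.54-fold, so neither reached 2-fold in both there. Dimmer KNL1 probe sets (130 and 114 on siNC) gave 1.98-fold and 1.68-fold with control siRNA. They were below the floor on both siYT arrays. The other ANLN probe set gave 2.21-fold and 2.16-fold. Of the differences after knockdown, 7 are bounds set by the floor, and CENPI and CENPM were at it on both arrays compared.

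The lowest differences with control siRNA were those of KIF20B (4.10-fold), CENPK, OIP5 (3.90-fold), SKA1 (3.42-fold), CDCA8 (3.41-fold), CENPL (3.38-fold) and HMMR (3.30-fold). After knockdown they were CENPE (3.14-fold), CENPK, CENPH (2.72-fold) and ZWINT (2.64-fold). With control siRNA 3 members read higher, KIF18A by 1.55-fold, INCENP by 1.52-fold and KIF22 by 1.07-fold. KIF18A also read higher after knockdown, by 2.29-fold, and was the only member at 2-fold higher in that comparison (5.00% of all genes). The additive limma fit called 0 of 51 members for 8Br-cAMP after Benjamini-Hochberg adjustment, against 0.0277% of all genes called lower. At an unadjusted p under 0.05 it had 30 members lower, against 9.35% of all genes.

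**Figure D3:**
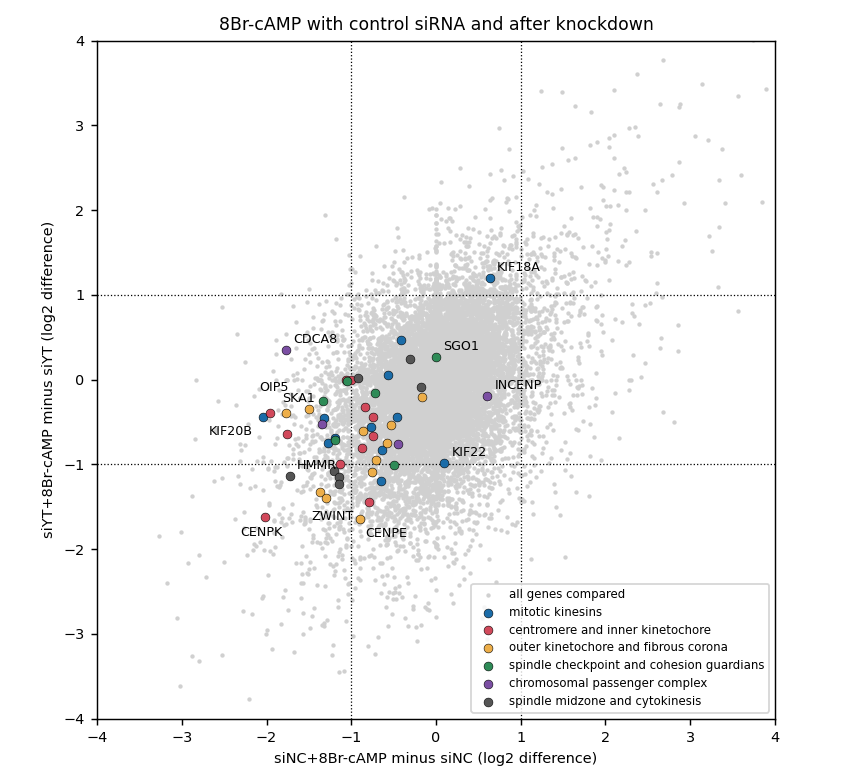
Difference with 8Br-cAMP after control siRNA (x axis) against that after YAP/TAZ siRNA (y axis), both log2; grey points are the 14427 genes compared, coloured points the 51 members by role, dotted lines the 2-fold limits. Members spread to the left and below 0, 7 lie beyond both lower limits, KIF18A lies above 0 in both, and 10 grey points fall outside the axes.

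With both treatments the levels were lowest. On siYT+8Br-cAMP against siNC, 48 of 51 members were at least 2-fold lower (13.8% of all genes), and the median was -2.94. As shares of the siNC intensity, the median member stood at 53.5% with 8Br-cAMP, 20.3% with knockdown and 12.4% with both. The highest reading was on siNC for 47 members (24.2% of all genes) and the lowest on siYT+8Br-cAMP for 41 (27.7%). CEP55 stood at 43.4%, 10.9% and 5.17%, ZWINT at 40.7%, 15.0% and 5.68%, and HMMR at 30.3%, 13.7% and 6.22%. KIF18A stood at 91.9% with both treatments, INCENP at 54.2% and SGO1, near the floor, at 128%.

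Several members are read by more than 1 probe set, 89 in all for the 51 genes, and 22 members have others besides the representative. Of these 38 others, 13 were below the floor on every array, so they stood at 0 in every comparison. Without 8Br-cAMP, 24 of the 38 read lower after knockdown (19 at 2-fold or more), 14 were level at the floor and 0 were higher. With 8Br-cAMP, 25 read lower (14 at 2-fold or more), 13 were level and 0 were higher. For 8Br-cAMP itself, 22 of the 38 read lower and 3 higher with control siRNA, and 17 lower and 3 higher after knockdown. Shares over all probe sets were not computed, so these counts only describe how a member's probe sets compare with each other. The probe sets of a member differed with an SD of 0.46 for knockdown without and 0.80 with 8Br-cAMP (25 probe sets of 12 genes). The BIRC5 probe sets gave 4.92-fold, 3.61-fold, 2.86-fold and 1.33-fold lower values without 8Br-cAMP, and a dim one for KIF23 (70.7 on siNC) gave 1.13-fold, where the representative gave 5.93-fold.

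**Figure D4:**
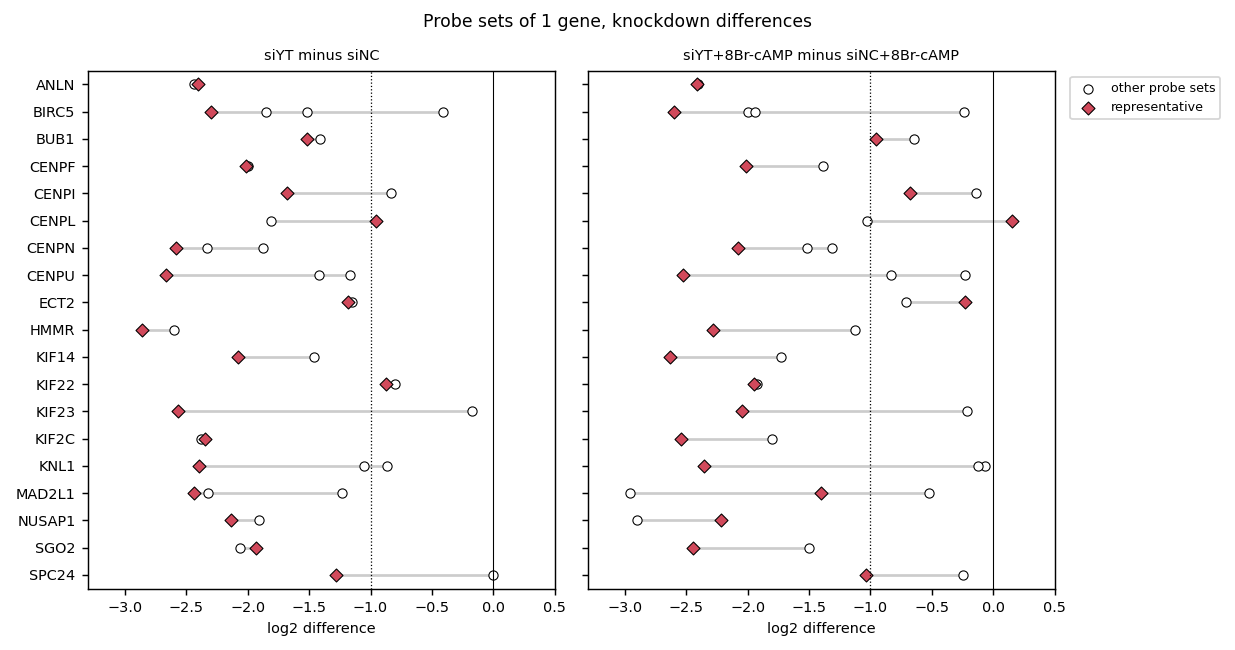
Knockdown differences (log2) of every probe set above the floor on at least 1 array, for the 19 members with more than 1, without (left) and with 8Br-cAMP (right); diamonds are the representative probe sets, circles the others, the dotted line is 2-fold. The 25 circles range from near the representative (ANLN) to close to 0 (KIF23), with that of SPC24 at 0 on the left.

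Other genes of mitosis were grouped by function, in lists that, like the module, were written with earlier results of these data known. Of 29 other mitotic regulators, 18 were at least 2-fold lower in each knockdown comparison and 0 higher (medians -2.06 and -1.72), and limma called 15 lower. DLGAP5, a spindle protein, was 5.57-fold and 11.6-fold lower, CCNA2, cyclin A2, 5.78-fold and 9.82-fold, PIMREG 5.76-fold and 6.84-fold and CCNB1, cyclin B1, 4.38-fold and 6.40-fold. CKAP5, the microtubule polymerase, differed by -0.31 and 0.49 and GTSE1 by -0.31 and -0.88. Of 9 condensin and topoisomerase genes, 4 were lower in both and 1 higher (medians -1.74 and -0.83), and limma called 0. TOP2A, which untangles sister chromatids, was 8.67-fold lower in the absence of 8Br-cAMP but 2.19-fold with it, and the condensin subunit NCAPG 4.11-fold and 2.14-fold. NCAPG2 was 3.35-fold and 2.49-fold lower, SMC2 3.57-fold and 1.46-fold, and NCAPD2 2.14-fold and 1.33-fold, while NCAPD3 differed by -0.11 and 0.25.

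Kinetochore genes outside the module had medians nearer 0, but which genes were left outside was decided with earlier results known. Of 23 such genes, 5 were at least 2-fold lower in each knockdown comparison and 1 higher (medians -0.53 and -0.79), and limma called 3 lower. ZWILCH (3.44-fold and 4.02-fold) and KNTC1 (2.91-fold and 2.52-fold), of the RZZ complex that ZWINT docks, were among the lower ones, as were MIS18A, of the complex that OIP5 joins (3.44-fold and 3.25-fold), and KNSTRN (3.90-fold and 2.02-fold). MIS12, which shares a complex with DSN1, read 1047, 1107, 1049 and 1042 in the order of arrays used throughout, nearly level across the arrays. MAD1L1, the partner of MAD2, differed by 0.20 and -0.10.

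The kinesins of transport and other work had medians of 0 in both comparisons. Of the 31, 27 passed the floor on at least 1 array and 19 on all 4, and the 4 below it on every array stand at 0. In all, 2 were at least 2-fold lower in both and 1 higher, and limma called 1 higher and 0 lower. KIF5C, a neuronal conventional kinesin, read 711, 687, 2302 and 4019, 3.24-fold and 5.85-fold higher. KIF2A, a depolymerase that also works at spindle poles, was 2.80-fold and 2.45-fold lower. KIF5B, the conventional kinesin of most tissues, differed by -0.79 and -0.56, KIFAP3 by 1.00 and 0.32, KIF21A by -0.10 and 0.09 and KLC2 by 0.03 and -0.20.

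Genes of the anaphase-promoting complex and of cytokinesis machinery shared with interphase had medians near 0. Of 14 subunits of the anaphase-promoting complex, the ubiquitin ligase that the checkpoint inhibits, 1 was lower in both knockdown comparisons, CDC23 (3.05-fold and 2.44-fold), with medians of -0.03 and 0.08. Of its others, ANAPC16 differed by 0.45 and 1.75, CDC26 by 0.45 and 0.96, ANAPC4 by 0.42 and 0.69, CDC16 by -0.10 and 0.21 and ANAPC13 by -0.19 and 0.32. Of 21 cytokinesis genes shared with interphase, MYH10, a non-muscle myosin heavy chain, was lower in both (2.06-fold and 2.05-fold) and CHMP4B, of the ESCRT filament that CEP55 recruits indirectly, higher in both (2.11-fold and 2.01-fold), with medians of -0.04 and 0.07. MYL12A, a myosin light chain, differed by -0.85 and -1.37, ROCK2 by -0.53 and -0.50, MYL12B by -0.58 and 0.63 and SEPTIN7 by -0.16 and 0.07. Of 18 tubulin and gamma-tubulin genes, TUBB4B (2.59-fold and 2.02-fold) and TUBB2A (2.01-fold and 2.34-fold) were lower in each comparison, and the medians were -0.59 and -0.18. TUBB2B was 1.89-fold and 3.54-fold lower and TUBGCP3 1.45-fold and 5.63-fold, while NEDD1 differed by -0.76 and 0.59 and TUBGCP5 by 0.23 and -0.04.

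Of 21 regulators of mitotic transcription, 4 were at least 2-fold lower in each knockdown comparison and 0 higher (medians -0.39 and -0.80), and limma called 2 lower. FOXM1, the activator of G2 and M genes, read 925, 629, 218 and 185, with both control readings above both siYT readings, and was 4.23-fold and 3.41-fold lower (limma log2 -1.92, SE 0.272, adjusted p = 0.0412). E2F8, a repressor of the E2F family, read 587, 340.3, 142 and 81.0 and was 4.13-fold and 4.20-fold lower. RBL2, which encodes p130, the pocket protein of the repressive DREAM complex, read 2014, 2971, 2625 and 409, low on the siYT+8Br-cAMP array alone. RBBP4, a MuvB subunit, was 1.74-fold and 2.60-fold lower, E2F5 differed by -0.39 and 0.67 and E2F3 by 0.41 and -0.80. CDKN1A, the p21 inhibitor of cyclin-dependent kinases, read 10120, 6929, 13369 and 12542, 1.32-fold and 1.81-fold higher after knockdown.

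**Figure D5:**
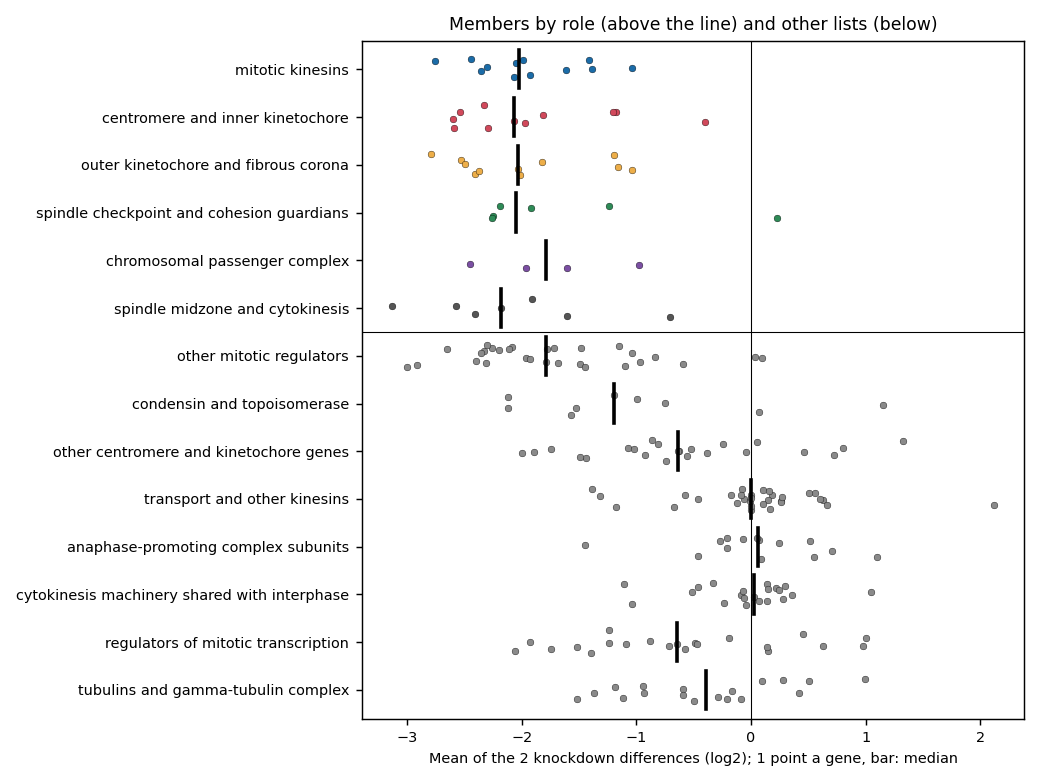
Mean of both knockdown differences (log2) for each measured gene, 1 point a gene, with a bar at each list's median: members by role above the line, other lists below it (points spread vertically for legibility). Medians of the 6 roles lie close to -2, those of transport kinesins, anaphase-promoting complex and shared cytokinesis genes close to 0.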

How the data were processed

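RNA from 4 cultures of KGN cells was read on 1 array each. The authors deposited a table of probe set intensities on a linear scale. The submitters' processing notes name Affymetrix Expression Console and RMA; their versions are not given in the sources used here. These deposited intensities do not look like RMA output: they run down to 0.0806, and each array has a 2% trimmed mean near 500.1, so background correction and summary are unknown. Probes near the 3' end give most of the signal, per the labels' extract protocol.

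Intensities under 62.6, the median of all values, were set to that floor and taken as log2 values, with no further normalization. A gene was represented by the probe set with 1 gene symbol (41097 of 54675) and the highest mean floored log2 value. Genes that passed the floor on 1 array or more (14427) were compared and called at 2-fold by size, since 1 array a group allows no test across arrays. A fold against an array below the floor is a bound, written "at least". The additive fit used limma 3.58.1 (R 4.3.3) with Benjamini-Hochberg adjustment over all genes compared, and takes the difference of differences as error. It was also run on simulated data, with an outcome not given here. The number of arrays limits the precision. Promoters are from RefSeq (GRCh38.p14).

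The members, lists, motifs and floor were chosen with earlier results of these data known, so counts of members describe them. Named besides the members are the siRNA targets, FOXM1, CDKN1A, the markers and, per other list, up to 4 genes above the floor on all arrays with the largest and 2 with the smallest mean knockdown difference. Alternatives changed the floor, the normalization, the choice of probe set, the threshold and the variance prior. No genes without a probe set of 1 symbol were analysed here.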

Additional observations from a re-analysis of the deposited data

How the results depend on the processing

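No paired analysis was possible because each group holds 1 array and the labels give no replicate numbers. The number of members at least 2-fold lower after knockdown without 8Br-cAMP ranged from 32 to 49 over 9 alternatives, each within 1.5 times the 46 reported, and no alternative turned the sign of a median. For these medians, most change came with a floor at the 75th percentile (389). They then were -1.36 for knockdown without and -0.42 with 8Br-cAMP, and 0.00 for 8Br-cAMP after knockdown. Counts then were 16 members lower for knockdown with 8Br-cAMP, 16 in both knockdown comparisons, 2 for 8Br-cAMP after knockdown, 2 in both 8Br-cAMP comparisons and 16 by limma for the knockdown, since low readings lose their difference under a higher floor. Limma called 0 members, and 0 of all genes, for the knockdown with no floor and with the mean over probe sets. It also called 0 of either without probe sets marked _s_at or _x_at. With the mean over probe sets, 4 members were lower in both 8Br-cAMP comparisons. Without the marked probe sets, 6 of 40 members had a 2-fold difference of differences. The cause was not tested. With an intensity trend in the variance, limma called 1 member lower for 8Br-cAMP. With probe sets chosen by linear mean, an alternative chosen after seeing the data, it called 23 for the knockdown. At 1.5-fold and 3-fold, 37 and 7 members were lower with 8Br-cAMP and control siRNA, and 25 and 2 after knockdown. In both 21 and 1 were lower, and 19 and 2 had a difference of differences. For counts by size, shares of all genes were computed at the reported settings only. Without the siYT+8Br-cAMP array, also chosen after seeing the data, only the comparisons that do not use it remain. Their counts, 46 members lower for knockdown and 23 for 8Br-cAMP, cannot change and so check nothing. Without shared probe sets, KIF23 read 0.042 for 8Br-cAMP with control siRNA and PLK4 0.0027 for knockdown with 8Br-cAMP, both on dim probe sets. Signal near the floor limits the lowest members, of which 8 were below it on siYT+8Br-cAMP.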
